A study of Mus musculus with 21 samples.

Results

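The genes that dock and release hormone granules were followed in pancreatic islets of CBA mice fed a regular diet or a high-fat diet with or without the AMPK activator O304. The set was listed by symbol from knowledge of regulated exocytosis, by a rule that uses no measured value, although earlier results of these data were known when it was listed. All 46 symbols were matched to an Ensembl gene among the 55536 genes of the count tables, and all 46 had enough reads to be tested. They comprised 12 SNAREs and SNARE regulators, 10 synaptotagmins and other calcium sensors, 15 Rab GTPases and Rab effectors, 6 priming factors and 3 granule membrane or tether proteins.

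In endocrine cells, Rab proteins and their effectors bring a hormone granule to the plasma membrane and hold it there. Priming factors then help a SNARE protein on the granule to pair with SNAREs of the plasma membrane, and calcium sensors such as the synaptotagmins trigger fusion when calcium enters the cell. In beta cells this sequence releases insulin, and alpha and delta cells use closely related proteins to release glucagon and somatostatin.

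A total of 3 groups of 7 samples were compared. RD islets came from male mice on standard chow, HFD islets from mice on a high-fat diet (D12492), and HFD-O304 islets from mice on the same high-fat diet with 0.8 mg of O304 per g. O304 is described by the study as a pan-AMPK activator. The mice were 10 weeks old when the diets began, and the diets lasted 9 or 10 weeks, as the study's text gives both. Each sample held 150 islets pooled from 5 mice, so a sample averages several animals, and n counts pools. One HFD-O304 sample, replicate 1, carries HFD in its diet label and was placed by its title. Whole islets mix several cell types, so fewer cells of a type and less RNA per cell cannot be told apart.

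Between 13809266 and 48922569 read pairs were assigned to genes per sample, with a median of 38719302, and HFD-O304 replicate 2 was the shallowest. The beta cell list, 10 genes led by Ins1 and Ins2, summed to between 280500 and 341300 CPM (counts scaled to library size) in RD, between 319600 and 378200 CPM in HFD and between 262500 and 311000 CPM in HFD-O304 islets, so the HFD and HFD-O304 ranges did not overlap. That sum mostly reflects the hormone genes. In HFD islets the medians were 215200 CPM for Ins2, 77500 for Ins1 and 42530 for Iapp, and at most 2907 (G6pc2) for any other gene of the list. The summed level of 4 alpha cell genes (Gcg, Irx1, Irx2, Ttr) also moved with the diet. It lay between 23170 and 28860 CPM in RD, between 10420 and 18780 CPM in HFD and between 23360 and 31730 CPM in HFD-O304 islets. The 3 delta cell genes (Sst, Hhex, Ghsr) summed to between 2281 and 3725 CPM in RD, 1246 and 2787 CPM in HFD and 2225 and 4319 CPM in HFD-O304 islets. The 12 acinar genes ranged from 12.7 to 7798 CPM across libraries, with wide overlap between the groups. These marker values accompany every difference between HFD and the other groups described here, and their part in it was not tested beyond the covariate fits given with the calls.

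Promoter windows, from 250 bases before to 50 bases after the start site, were found in RefSeq (build GRCm38.p6) for 34 of the 46 genes. No window was given for Snap25, Vamp2, Vamp3, Syt4, Syt5, Syt7, Syt13, Doc2b, Otof, Rab27b, Rab37 and Rims2. Windows are shown for 2 genes that were lower and 2 that were higher in HFD-O304 than in HFD islets, because they hold the short motifs that were searched. Each is the stretch of 250 bases before the start site, written 5′ to 3′ on the gene's strand. Capitals mark TGACG, the core of the cyclic AMP response element, or GGACAG, a part of the RE1 element bound by the repressor REST, on either strand. The windows are chr9:21918184-21918433 (minus strand) for Rab3d, chr1:75264209-75264458 (minus strand) for Ptprn, chr1:90914850-90915099 (plus strand) for Mlph and chr4:120854549-120854798 (plus strand) for Rims3. Annotated exons of the same gene cover 9, 30, 15 and 0 bases of them.
Rab3d: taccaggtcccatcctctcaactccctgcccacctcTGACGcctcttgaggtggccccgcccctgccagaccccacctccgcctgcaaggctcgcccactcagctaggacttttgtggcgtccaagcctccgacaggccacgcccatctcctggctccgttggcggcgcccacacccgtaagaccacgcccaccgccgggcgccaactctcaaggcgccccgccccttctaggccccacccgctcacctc
Ptprn: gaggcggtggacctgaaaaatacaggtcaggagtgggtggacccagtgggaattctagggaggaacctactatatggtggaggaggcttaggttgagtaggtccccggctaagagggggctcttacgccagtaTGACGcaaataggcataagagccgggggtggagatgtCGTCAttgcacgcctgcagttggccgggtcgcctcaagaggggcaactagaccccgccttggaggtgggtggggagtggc
Mlph: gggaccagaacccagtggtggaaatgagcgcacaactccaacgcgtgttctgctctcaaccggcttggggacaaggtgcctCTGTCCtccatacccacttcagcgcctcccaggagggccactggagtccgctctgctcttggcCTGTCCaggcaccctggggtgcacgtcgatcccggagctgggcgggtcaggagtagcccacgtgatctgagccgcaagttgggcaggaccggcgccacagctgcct
Rims3: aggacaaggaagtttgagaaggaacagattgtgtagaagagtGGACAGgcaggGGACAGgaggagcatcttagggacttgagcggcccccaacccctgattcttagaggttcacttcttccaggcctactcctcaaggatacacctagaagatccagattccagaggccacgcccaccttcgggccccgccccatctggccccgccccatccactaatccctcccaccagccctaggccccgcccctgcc

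Over the full window, TGACG stood in 11 of the 34 windows (32.4%) and in 20.8% of all 32851 promoter windows of that length (both strands searched). The longer palindrome TGACGTCA, which contains TGACG, was found in Napa and Syn1 and in 1.79% of all windows. GGACAG stood in 10 of the 34 windows (29.4%), against 22.2% of all windows, and TTCAGCACC, the other part of the RE1 element, in Unc13a, Ptprn2 and Syn1 (8.82%, against 0.371%). The GC box GGGCGG was in 24 windows (70.6%, against 35.7%). The motif TGACGTGG and the element known as ERSE, which are linked to the response to endoplasmic reticulum stress, were in none of the 34 and in 0.676% and 0.119% of all windows. Of the 12 genes with a window that were higher in HFD-O304 than in HFD islets, 3 held TGACG and 5 held GGACAG. Of the 5 that were lower, 2 held TGACG and none held GGACAG. Of the 17 not called in that comparison, 6 held TGACG and 5 held GGACAG. These groups are small, and a difference between them was not tested. A motif match describes letters and does not show a bound site.

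Levels are compared between genes as reads scaled to exon length and library size (FPKM). Together the 46 genes took 0.674 to 0.796% of the normalised reads of a library. The highest mean level over the 21 samples was 363 FPKM for Syt13, an atypical synaptotagmin that lacks calcium binding, and 99.8% of the tested genes were lower. It was followed by the granule membrane protein Ptprn (IA-2) at 170 FPKM, the complexin Cplx2 at 132 FPKM and the IA-2 relative Ptprn2 (phogrin) at 109.7 FPKM. Rab3d at 74.4 FPKM and Sytl4 (granuphilin, which docks insulin granules through Rab27a) at 72.3 FPKM led the Rabs and effectors. Among the SNARE genes, Napa, the adaptor that recruits the SNARE-recycling ATPase, reached 57.2 FPKM and the granule SNARE Vamp2 reached 55.1 FPKM. Syt7, a calcium sensor of the beta cell, stood at 50.8 FPKM.

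At the low end stood Stxbp5l at 0.657 FPKM, Rab27b at 0.292 FPKM, Otof at 0.178 FPKM and Cplx1 at 0.151 FPKM. Cplx1 rested on 267 reads in all 21 libraries, with 1 to 87 in a library. The order of levels placed Cplx2 far above Cplx1, and Rab27a (60.8 FPKM) far above Rab27b. Of the exons of Rab27a, 3.84% overlapped another annotated gene on the same strand, and no other of the 46 genes shared exon bases in this way.

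**Figure D1:**
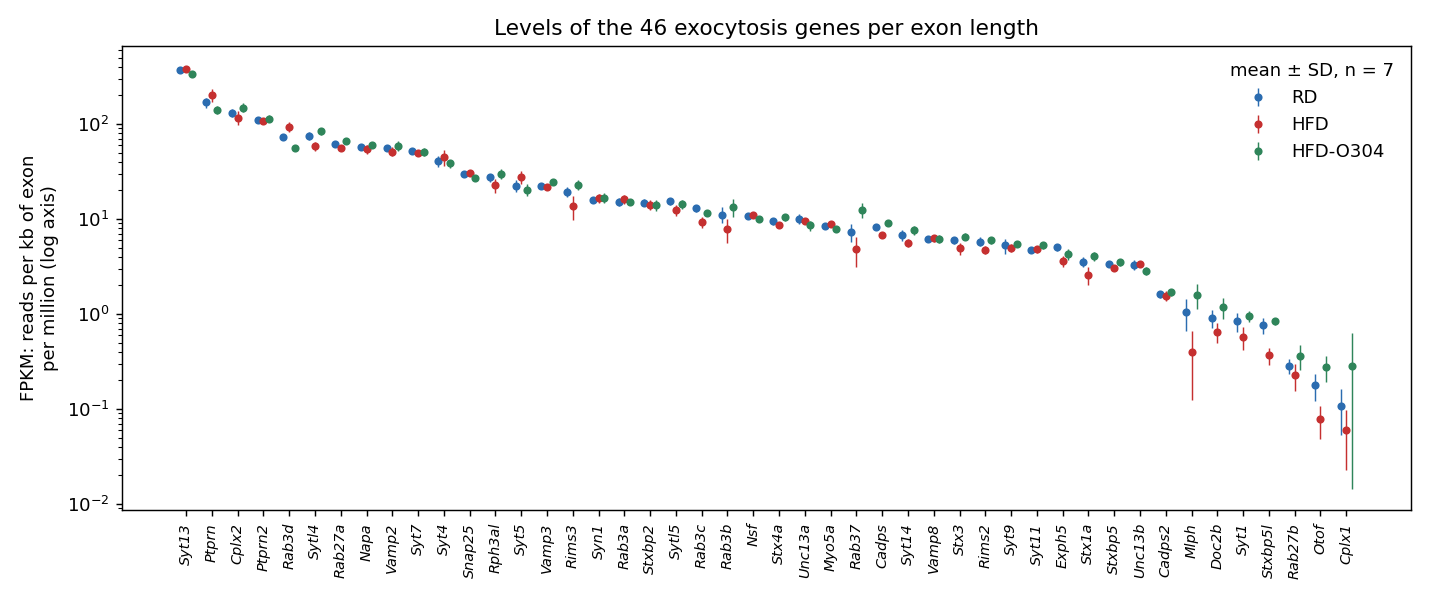
Mean level of each of the 46 genes in FPKM (log axis) in RD, HFD and HFD-O304 islets, ordered by the mean over all samples, with bars for the SD of 7 samples (the lower bar of Cplx1 in HFD-O304 islets would pass 0 and is cut). The levels run from 363 for Syt13 to 0.151 for Cplx1.

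The effect of the high-fat diet was asked first. In HFD against RD islets, 8 of the 46 genes (17.4%) were differentially expressed at an adjusted p below 0.01 in edgeR's quasi-likelihood test, where 3.54% of all 27229 tested genes were. One was higher, the granule GTPase Rab3d, against 2.0% of all genes, and 7 were lower, against 1.54%. The 7 were Stx1a, Stxbp5l, Otof, Rab3c, Mlph, Exph5 and Cadps. The median log2 fold change of the 46 genes was -0.09 and that of all tested genes -0.0044. In 4 genes (Stxbp5l, Rab3c, Exph5 and Cadps) every HFD sample was below every RD sample, which held for 0.687% of all genes. Among the 13216 genes with a mean of at least 50 normalised counts, as nearly all of the 46 have, 6.22% were differentially expressed. Of those 13216, 440 were called higher and 382 lower, and in 171 every HFD sample was below every RD sample.

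The effect of O304 on top of the high-fat diet was asked next. In HFD-O304 against HFD islets, 24 genes (52.2%) were differentially expressed, where 11.9% of all tested genes and 20.8% of the genes with a mean of at least 50 were. In all, 16 were higher (5.08% of all genes) and 8 were lower (6.79%). The groups did not overlap in 7 of the higher genes (2.56% of all genes) and 7 of the lower genes (3.61%). Of the 13216 genes with a mean of at least 50, 1215 were called higher and 1539 lower. The groups did not overlap in 627 of those 13216 on the higher side and 865 on the lower side. Higher and lower genes stood in the same classes, with 3 higher and 2 lower among the SNARE genes and 4 and 2 in the class of synaptotagmins and calcium sensors. There were 7 and 2 among the Rabs and effectors, 2 and 1 among the priming factors, and 0 and 1 among the granule membrane and tether proteins. The median log2 fold change was 0.10 for the 46 genes and 0.03 for all tested genes.

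In HFD-O304 against RD islets, 2 genes (4.35%) were differentially expressed, against 1.31% of all tested genes and 2.53% of the genes with a mean of at least 50. Rab3d was lower (0.903% of all genes) and Rab37 was higher (0.404%). Samples did not overlap in 2 lower genes, Rab3d and Syt13 (0.87% of all genes), and 2 higher genes, Rab37 and Cadps (0.694%). Of the 13216 genes with a mean of at least 50, 234 were called lower and 100 higher. Samples did not overlap in 224 of those 13216 on the lower side and 173 on the higher side. The 3 comparisons draw on 3 groups, so each group enters 2 of them, and a high or low HFD value moves HFD against RD and HFD-O304 against HFD together. How many lower genes were called depended on the fit in HFD against RD, with 12 in DESeq2, 14 with the library set as a term and 4 with only those 2 groups fitted, and in HFD-O304 against RD, with 5 in DESeq2 and 2 with the library set as a term. Calls over all genes, in either direction, moved in the same fits. They were 1758, 1611 and 627 in place of 963 in HFD against RD islets. In HFD-O304 against RD islets they were 727 and 543 in place of 356.

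**Figure D2:**
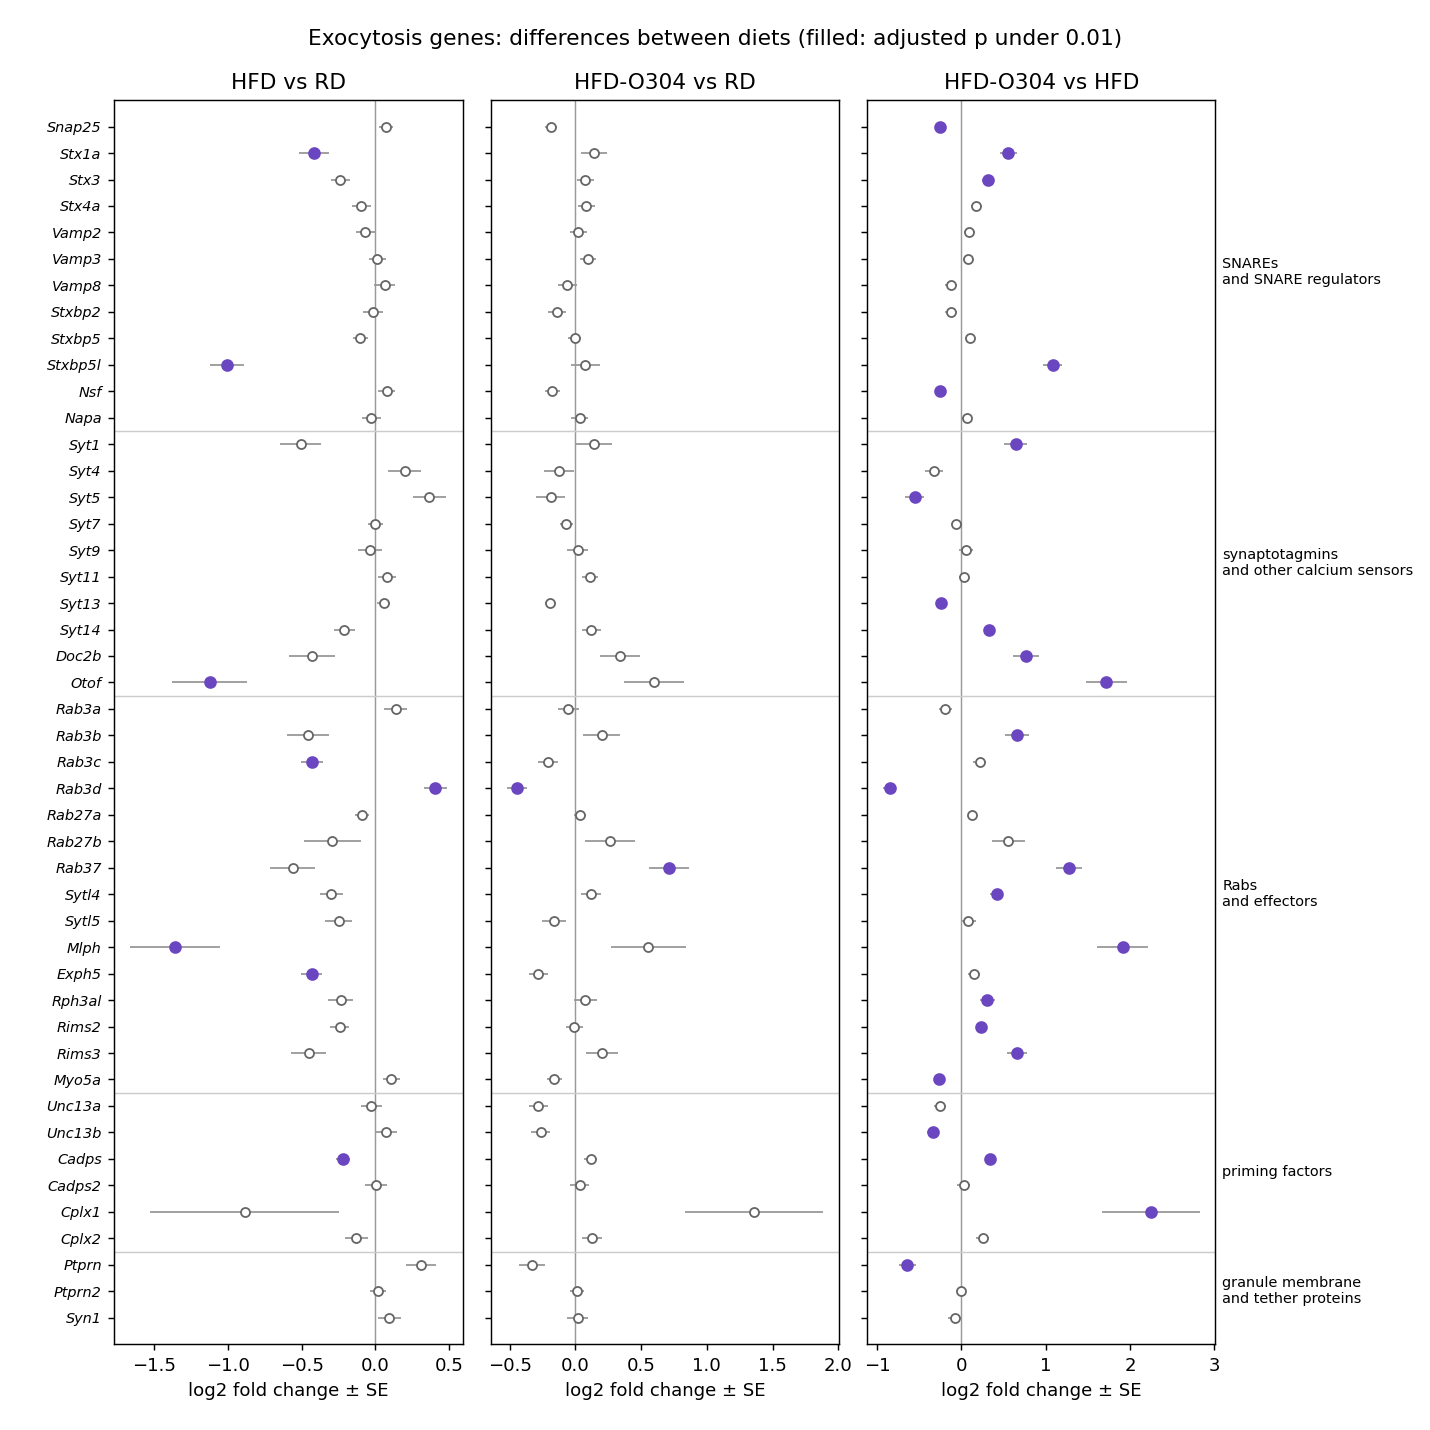
Log2 fold change ± SE of each of the 46 genes in the 3 comparisons (7 samples a group; the horizontal scale differs between panels), with filled points at an adjusted p below 0.01. Filled points number 8, 2 and 24, and in HFD-O304 against HFD islets they lie on both sides of 0 in every class but the granule membrane proteins.

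Marker genes of several cell types moved with these calls. Of the 4 alpha cell genes, 2 were lower and 1 (Ttr) was higher in HFD than in RD islets, and 3 were higher and 1 (Ttr) lower in HFD-O304 than in HFD islets; of the 3 delta cell genes, 2 were lower and then 3 higher. In HFD-O304 against HFD islets 3 of 10 beta cell genes (Slc2a2, Ucn3, Slc30a8) were higher and 3 (Ins1, Ins2, Iapp) lower. In the same comparison 3 of 6 duct genes were higher, 3 of 5 stellate cell and fibroblast genes and 2 of 5 endothelial genes were lower, and 0 of the 12 acinar genes passed. In HFD against RD islets 1 beta cell gene was higher and 2 were lower, and no duct, stellate cell, endothelial or acinar gene passed. In a fit chosen after seeing the data, the mean log2 CPM of the 7 alpha and delta cell genes was added as a covariate. Of the 8, 2 and 24 calls 0, 1 (Rab3d) and 0 then remained, while over all genes 0, 191 and 24 calls were made in place of 963, 356 and 3230. That covariate, centred over all samples, ran from -0.071 to 0.24 in RD, from -0.58 to 0.014 in HFD and from 0.11 to 0.43 in HFD-O304 islets, so diet and marker level cannot be told apart by it.

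Among the SNARE genes, the largest difference was in Stxbp5l (tomosyn-2, ENSMUSG00000022829, chr16:37114942-37384962), which binds syntaxins and holds back SNARE pairing. Its normalised counts had a lowest value, median and highest value of 189, 226 and 299 in RD, 98.1, 114.7 and 165 in HFD, and 220, 252 and 265 in HFD-O304 islets. Every HFD sample lay below every sample of the other groups. The mean was 236 ± 40.3 (SD, n = 7) in RD, 117.6 ± 22.4 in HFD islets and 248.9 ± 15.8 in HFD-O304 islets. Expression was 2.01-fold lower in HFD than in RD (log2 fold change -1.01, SE 0.11, adjusted p = 6.49e-06, edgeR) and 2.12-fold higher in HFD-O304 than in HFD islets (1.08, SE 0.11, adjusted p = 1.15e-07). HFD-O304 against RD gave 0.08, with an adjusted p of 0.829. The HFD decrease in Stxbp5l was the only one of the 8 to pass the test under every alternative named in the methods and with every sample left out.

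Stx1a, a syntaxin of the plasma membrane that pairs with SNAP-25, ran from 296 to 395 (median 349) in RD, from 206 to 331 (median 255) in HFD and from 324 to 434 (median 378) in HFD-O304 islets. The HFD range overlapped both others at its upper end. Expression was 1.33-fold lower in HFD than in RD islets (-0.42, SE 0.10, adjusted p = 0.00866) and 1.47-fold higher in HFD-O304 than in HFD islets (0.56, SE 0.10, adjusted p = 0.000155). The first of these calls was lost without any 1 of 10 of the 14 RD and HFD samples, with adjusted p up to 0.0261 (without HFD replicate 4). Stx3, a second syntaxin, was 1.24-fold higher in HFD-O304 than in HFD islets (means 1304 ± 117.1 and 1050 ± 113.9, adjusted p = 0.00113), and its HFD against RD value was -0.24 with an adjusted p of 0.026.

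Snap25, the partner of the syntaxins, and Nsf, the ATPase that takes spent SNARE complexes apart, were lower in HFD-O304 islets. Snap25 ran from 7107 to 8603 (median 7676) in HFD and from 6083 to 6962 (median 6425) in HFD-O304 islets, without overlap, and was 1.19-fold lower (-0.25, SE 0.047, adjusted p = 0.000247). Nsf ran from 3171 to 3843 (median 3391) in HFD and from 2730 to 3146 (median 2830) in HFD-O304 islets, also without overlap (-0.25, SE 0.057, adjusted p = 0.00179). These are small differences in abundant transcripts, and in neither gene did HFD against RD pass (0.07 and 0.08). The remaining 7 SNARE genes, Stx4a, Vamp2, Vamp3, Vamp8, Stxbp2, Stxbp5 and Napa, passed in no comparison. Vamp2 had means of 7667 ± 458, 7330 ± 684 and 7783 ± 731 in RD, HFD and HFD-O304 islets, and Napa had 7841 ± 639, 7706 ± 755 and 8024 ± 458. Their log2 fold changes between HFD-O304 and HFD islets were 0.09 (SE 0.065) and 0.06 (SE 0.064).

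In the class of synaptotagmins and other calcium sensors, Otof, Doc2b, Syt1 and Syt14 were higher and Syt5 and Syt13 lower in HFD-O304 than in HFD islets. Otof (otoferlin, the calcium sensor of the hair cell synapse) was scarce, at 28.8 to 75.8 (median 52.8) normalised counts in RD, 12 to 34.8 (median 21.1) in HFD and 37.1 to 102.5 (median 85.5) in HFD-O304 islets. The HFD range lay below the HFD-O304 range and overlapped the RD range. It was 2.18-fold lower in HFD than in RD (-1.12, SE 0.25, adjusted p = 0.00513) and 3.3-fold higher in HFD-O304 than in HFD islets (1.72, SE 0.25, adjusted p = 9.29e-06). The decrease was lost without any 1 of 8 samples, with adjusted p up to 0.0161 (without RD replicate 1), and the increase was kept in every such fit.

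Doc2b, a soluble C2-domain calcium sensor of insulin secretion, had means of 143 ± 29.8, 106.8 ± 22.2 and 180 ± 41.9 in RD, HFD and HFD-O304 islets. It was 1.7-fold higher in HFD-O304 than in HFD islets (0.77, SE 0.15, adjusted p = 0.000587), with ranges of 124 to 239 and 88.4 to 154 that overlapped. Syt1, the fast sensor of neurons, ran from 198 to 326 (median 239) in RD, from 139 to 254 (median 160) in HFD and from 247 to 359 (median 266) in HFD-O304 islets. It was 1.57-fold higher in HFD-O304 than in HFD islets (0.65, SE 0.14, adjusted p = 0.00105), and HFD against RD gave -0.51 with an adjusted p of 0.0208. Syt14, a calcium-independent family member, was 1.26-fold higher (means 3175 ± 276 and 2529 ± 190, adjusted p = 0.000854), and its lowest HFD-O304 sample (2862) stood just above the highest HFD sample (2854).

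Syt13, the most abundant member, had medians of 50643, 53374 and 44093 in RD, HFD and HFD-O304 islets. All 7 HFD-O304 samples (41550 to 47266) lay below all RD samples (48288 to 54316) and all HFD samples (49835 to 54902). The decrease was 1.19-fold against HFD (-0.25, SE 0.044, adjusted p = 0.000145) and 1.14-fold against RD islets, where the adjusted p of 0.0134 missed the threshold. Syt5 had means of 1931 ± 308, 2498 ± 483 and 1693 ± 229, and was 1.47-fold lower in HFD-O304 than in HFD islets (-0.55, SE 0.11, adjusted p = 0.000635). Its HFD against RD value of 0.36 had an adjusted p of 0.0414. Syt4, Syt7, Syt9 and Syt11 passed in no comparison, and Syt7, a sensor of beta cell exocytosis, had means of 14001 ± 745, 14029 ± 554 and 13348 ± 896.

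Rab3d (ENSMUSG00000019066, chr9:21907491-21918192) was the only member called in all 3 comparisons. It belongs to the Rab3 GTPases, which sit on secretory granules. Its normalised counts ran from 9461 to 12590 (median 11044) in RD, from 11952 to 18563 (median 14778) in HFD and from 7411 to 9099 (median 8106) in HFD-O304 islets. Every HFD-O304 sample was below every RD and every HFD sample, while the RD and HFD ranges overlapped at their edge. Means were 11193 ± 1226, 14889 ± 2118 and 8220 ± 537. Expression was 1.32-fold higher in HFD than in RD islets (0.41, SE 0.079, adjusted p = 0.00158), 1.36-fold lower in HFD-O304 than in RD islets (-0.44, SE 0.079, adjusted p = 0.00112) and 1.8-fold lower in HFD-O304 than in HFD islets (-0.85, SE 0.079, adjusted p = 1.59e-08). All 3 calls were kept whichever sample was left out.

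**Figure D3:**
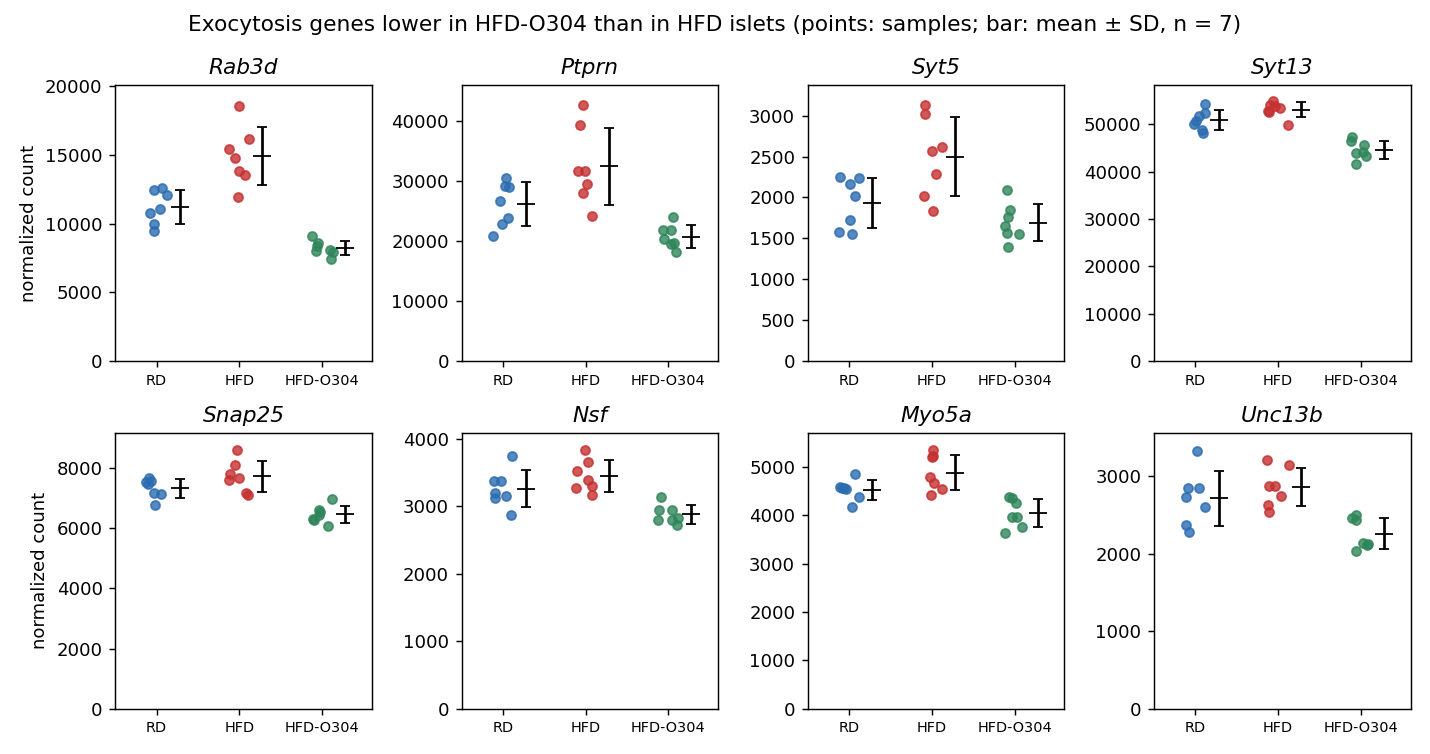
Normalised counts (vertical axis from 0) of the 8 genes that were lower in HFD-O304 than in HFD islets, with 1 point per sample and the mean ± SD of 7 samples beside each group. The Rab3d samples of HFD-O304 islets (7411 to 9099) lie below all RD and HFD samples, as do those of Syt13 (41550 to 47266).

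The Rab3 family has 3 further genes. Rab3c ran from 5082 to 6230 (median 5605) in RD, from 3230 to 4786 (median 4344) in HFD and from 4175 to 5412 (median 4894) in HFD-O304 islets. All HFD samples were below all RD samples, and HFD-O304 samples overlapped both groups. It was 1.35-fold lower in HFD than in RD islets (-0.43, SE 0.075, adjusted p = 0.000632), and HFD-O304 against HFD gave 0.22 with an adjusted p of 0.0397. Rab3b was 1.58-fold higher in HFD-O304 than in HFD islets (means 1623 ± 317 and 1033 ± 274, adjusted p = 0.00124), with overlap, and HFD against RD gave -0.46 with an adjusted p of 0.046. Rab3a, with means of 1226 ± 164, 1352 ± 153 and 1179 ± 77.7, passed in no comparison.

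Rab37 (ENSMUSG00000020732, chr11:115091431-115162236), a granule GTPase also found in other secretory cells, was the only member called higher in HFD-O304 islets against both other groups. It ran from 1013 to 1774 (median 1450) in RD, from 636 to 1469 (median 848) in HFD and from 1821 to 2744 (median 2175) in HFD-O304 islets. No HFD-O304 sample overlapped the other groups. The increase was 2.42-fold against HFD (1.27, SE 0.16, adjusted p = 1.06e-06) and 1.64-fold against RD islets (0.71, SE 0.15, adjusted p = 0.00709), and HFD against RD gave -0.56 with an adjusted p of 0.0216. The call against RD was lost without any 1 of 10 samples, with log2 fold changes of 0.66 to 0.74 and adjusted p up to 0.0208 (without HFD-O304 replicate 5) in those fits. Rab27a, the main granule Rab of beta cells, had means of 8661 ± 435, 8143 ± 409 and 8868 ± 331 and passed in no comparison, and neither did Rab27b.

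Of the Rab effectors, Mlph (melanophilin, which links Rab27a to myosin Va) had the largest fold change. It ran from 90.9 to 276 (median 232) in RD, from 30.1 to 169 (median 53.8) in HFD and from 196 to 408 (median 312) in HFD-O304 islets. The lowest HFD-O304 sample was above the highest HFD sample, while RD and HFD overlapped. It was 2.56-fold lower in HFD than in RD (-1.36, SE 0.30, adjusted p = 0.00507) and 3.77-fold higher in HFD-O304 than in HFD islets (1.91, SE 0.30, adjusted p = 3.25e-05). The decrease was lost without any 1 of 10 samples, with adjusted p up to 0.0152 (without RD replicate 7).

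Exph5 (Slac2-b), another Rab27 effector, was called in HFD against RD islets alone. It ran from 1755 to 2002 (median 1927) in RD, from 1199 to 1640 (median 1413) in HFD and from 1411 to 1784 (median 1450) in HFD-O304 islets. It was 1.35-fold lower in HFD than in RD islets without overlap (-0.43, SE 0.071, adjusted p = 0.000363). Its HFD-O304 values overlapped both groups, at 0.15 against HFD (adjusted p = 0.158) and -0.28 against RD (adjusted p = 0.0258).

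Sytl4 and Rims3 were higher in HFD-O304 than in HFD islets. Sytl4 had means of 13863 ± 1663 in RD, 11297 ± 1137 in HFD islets and 15077 ± 1436 in HFD-O304 islets, with 1 HFD sample (12813.6) above the lowest HFD-O304 sample (12760), and was 1.34-fold higher (0.42, SE 0.078, adjusted p = 0.000219). Rims3, a short RIM protein of the release site, ran from 2514 to 5428 (median 4115) in HFD and from 5587 to 7314 (median 6311) in HFD-O304 islets, without overlap, and was 1.58-fold higher (0.66, SE 0.12, adjusted p = 0.000208). In HFD against RD islets the same genes gave -0.30 and -0.45, with adjusted p of 0.0144 and 0.0175. Both calls were kept with every sample left out.

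Rph3al (Noc2, an effector of Rab3 and Rab27 in endocrine cells) and Rims2 (a Rab3 effector that organises priming in beta cells) passed narrowly. Rph3al was 1.24-fold higher in HFD-O304 than in HFD islets (means 3984 ± 418 and 3221 ± 463, adjusted p = 0.0091) and Rims2 1.18-fold higher (2159 ± 149 and 1846 ± 145, adjusted p = 0.00997). The 2 calls were lost without any 1 of 9 and 10 of the 14 samples compared, with adjusted p up to 0.0273 (Rph3al, without HFD-O304 replicate 5) and 0.0328 (Rims2, without HFD-O304 replicate 6). Myo5a, the myosin that carries granules on actin, was 1.2-fold lower in HFD-O304 than in HFD islets (4046 ± 291 and 4883 ± 371, -0.26, SE 0.057, adjusted p = 0.00123), without overlap. Sytl5 passed in no comparison.

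**Figure D4:**
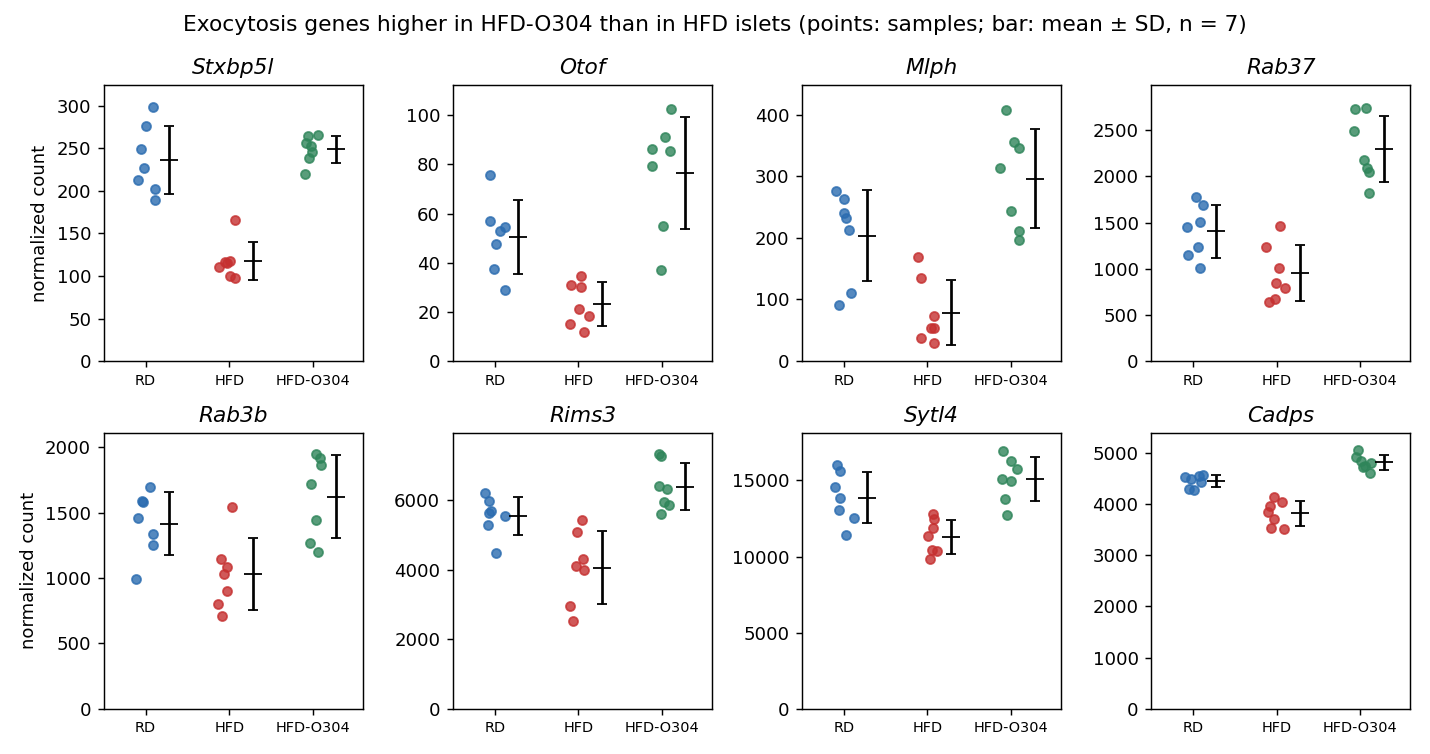
Normalised counts (vertical axis from 0) of 8 of the 16 genes that were higher in HFD-O304 than in HFD islets, with 1 point per sample and the mean ± SD of 7 samples beside each group. In Stxbp5l and Cadps all HFD samples lie below all samples of both other groups, and 1 HFD sample, at 165, stands apart in Stxbp5l.

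Of the priming factors, Cadps (CAPS1), which prepares docked granules for release, was lower in HFD islets and higher in HFD-O304 islets. It ran from 4267 to 4557 (median 4483) in RD, from 3514 to 4142 (median 3850) in HFD and from 4598 to 5059 (median 4791) in HFD-O304 islets. No sample of any group overlapped another group. It was 1.17-fold lower in HFD than in RD (-0.22, SE 0.048, adjusted p = 0.00354) and 1.26-fold higher in HFD-O304 than in HFD islets (0.34, SE 0.048, adjusted p = 7.31e-06). Against RD, HFD-O304 gave 0.12 with an adjusted p of 0.233. Without HFD replicate 5, the HFD decrease had an adjusted p of 0.0107. That call was also lost with no filter on low counts, with only the 2 groups fitted and within each library set. The adjusted p reached 0.0833 in those fits.

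Unc13b (Munc13-2), a priming factor of the Munc13 family, was 1.26-fold lower in HFD-O304 than in HFD islets (2255 ± 199 and 2855 ± 250, -0.34, SE 0.075, adjusted p = 0.0016), without overlap. Its relative Unc13a had means of 4605 ± 541, 4534 ± 240 and 3785 ± 407 in RD, HFD and HFD-O304 islets, and -0.26 in HFD-O304 against HFD islets with an adjusted p of 0.0123. Cplx2, the main islet complexin, which steadies partly assembled SNARE complexes, had means of 23492 ± 1919, 21538 ± 2843 and 25615 ± 2197, and the same comparison gave 0.25 with an adjusted p of 0.0198. Cadps2 passed in no comparison.

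Cplx1 was called higher in HFD-O304 than in HFD islets (2.25, SE 0.58, adjusted p = 0.00609) at very low counts. It ran from 4.27 to 17.3 (median 6.59) in RD, from 2.6 to 9.92 (median 3.01) in HFD and from 2.61 to 76.8 (median 7.66) in HFD-O304 islets, with overlap throughout. Without HFD-O304 replicate 4, which held the highest value, the log2 fold change was 1.48 and the adjusted p 0.0391, and the call was also lost without 7 other samples.

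Ptprn, a tyrosine phosphatase-like protein of the granule membrane, ran from 20906 to 30466 (median 26618) in RD, from 24265 to 42617 (median 31649) in HFD and from 18216 to 24042 (median 20350) in HFD-O304 islets. HFD-O304 and HFD islets did not overlap. It was 1.56-fold lower in HFD-O304 than in HFD islets (-0.64, SE 0.10, adjusted p = 3.54e-05), and HFD against RD gave 0.31 with an adjusted p of 0.0598. Its relative Ptprn2 stayed between 29358 and 36626 in all 21 samples, with log2 fold changes of 0.02, 0.01 and -0.01 (SE 0.052 each). Syn1, a synapsin that tethers vesicles to actin, passed in no comparison, with means of 1913 ± 153, 2049 ± 261 and 1932 ± 199.

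Single samples stood at the edge of their group in many of these genes. HFD replicate 7 was the highest HFD sample in 12 of the 16 genes with higher levels in HFD-O304 islets and the lowest in 5 of the 8 that were lower. It also had the highest delta cell sum of the HFD samples (2787 CPM) and an alpha cell sum of 17897 CPM, where HFD replicates 2 to 6 had 10421 to 13755 CPM and HFD replicate 1 had 18779 CPM. HFD replicate 1 was the highest HFD sample in 5 of the 8 lower genes, Rab3d and Ptprn among them. Without HFD replicate 7, 13 members in place of 7 were lower in HFD than in RD islets. Over all genes, 1594 in place of 963 were then called in either direction. Without any 1 of RD replicates 1, 5 and 7 or HFD replicates 2 to 5, only 4 members were lower. Calls over all genes numbered 589 to 751 in those fits. RD replicate 2 was the lowest RD sample in 10 of the 16 genes. What sets these samples apart was not tested.

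Library numbers point to 2 sets of libraries, replicates 1 to 4 and replicates 5 to 7, each with all 3 groups. All 8, 2 and 24 called genes had the same sign in both sets. Tested within a set alone, 5 and 2 of the 8 genes passed in HFD against RD islets, 2 and 1 of the 2 in HFD-O304 against RD islets, and 16 and 14 of the 24 in HFD-O304 against HFD islets. Over all genes, the 2 sets gave 563 and 307 calls in HFD against RD islets. They gave 85 and 228 in HFD-O304 against RD islets and 2001 and 1456 in HFD-O304 against HFD islets. The test of whether the diet difference itself differed between sets had no member and no other gene at an adjusted p below 0.01 (edgeR), with a lowest adjusted p among the members of 0.466, 0.854 and 0.825. At an unadjusted p below 0.05 it had 7, 6 and 4 members and 1862, 1516 and 1314 of all genes. In Mlph the HFD decrease was -1.99 in replicates 1 to 4 and -0.95 in replicates 5 to 7, while in Stxbp5l it was -0.998 and -1.01. In Rab3c the HFD decrease was -0.58 and -0.23, and HFD-O304 against HFD, not called over all samples, gave 0.39 and -0.02. Rab3a, also not called over all samples, gave -0.02 and 0.37 in HFD against RD islets. It passed within replicates 5 to 7 (adjusted p = 0.00443, edgeR).

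**Figure D5:**
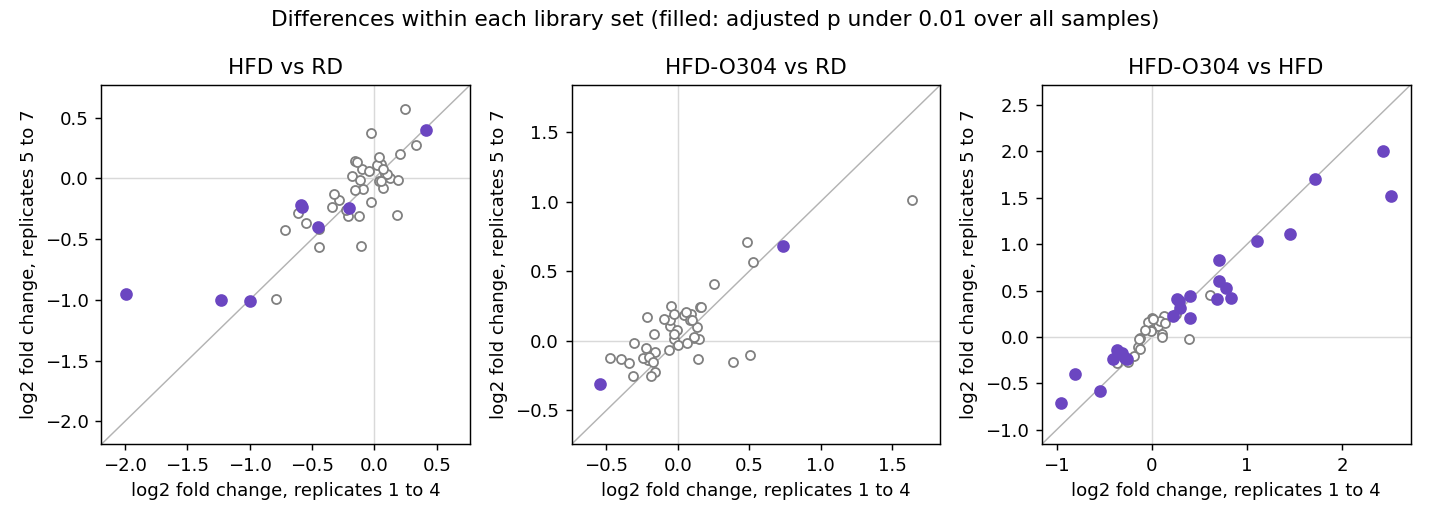
Log2 fold change of each of the 46 genes in replicates 5 to 7 (vertical) against replicates 1 to 4 (horizontal) for the 3 comparisons, with the line of equal values and filled points for genes at an adjusted p below 0.01 over all samples. All filled points lie in the lower left or upper right field.

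Other genes of regulated exocytosis, a list of 70 of which 67 were tested, were counted in the same way. In HFD against RD islets 5 were lower and 0 higher, namely Cplx3, Stxbp3, Sv2b, Ppfia2 and Sv2a. That was 7.46%, against 3.54% of all genes and 6.22% of the genes with a mean of at least 50. In HFD-O304 against HFD islets 14 were higher and 5 lower (28.4%), against 11.9% of all genes and 20.8% of the genes with a mean of at least 50. The smallest adjusted p belonged to Cplx3, a complexin of ribbon synapses, with means of 1.62 in HFD and 22.7 normalised counts in HFD-O304 islets (3.66, SE 0.40, adjusted p = 1.86e-07). It was followed by Baiap3, a Munc13 relative (0.88, adjusted p = 1.69e-05), and the release site scaffold Erc2 (0.53, adjusted p = 2.64e-05), both higher, and by the Rab27 effector Sytl1 (-0.55, adjusted p = 0.000109) and the calcium sensor Syt3 (-0.54, adjusted p = 0.000121), both lower. In HFD-O304 against RD islets 1 gene was lower, the Rab27a effector Myrip (-0.57, SE 0.11, adjusted p = 0.00204), and 0 were higher. That share of 1.49% was near the 1.31% of all genes and below the 2.53% of the genes with a mean of at least 50.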

How the data were processed

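RNA was measured by sequencing in 21 islet samples, 7 each of RD, HFD and HFD-O304. Per the study's methods, the authors prepared TruSeq libraries, read them as 50-nt paired ends and aligned them with STAR (version not given in the sources used here; FastQC and STAR are in the submitters' processing notes) to GRCm38 with Ensembl 96. The authors deposited raw counts of read pairs per gene in 3 columns (unstranded and each strand). The fourth column of each file, the strand that held 28.8 to 36.3 times the pairs of the other, was used, and 18.5 to 24.9% of pairs that named no gene stayed out of library sizes. Replicates are pools of 5 mice and were taken as separate pools, since the labels name no shared animal but do not state that there was none. The p-values measure the spread between these samples only. Between replicates of a group, the chi-square of counts per gene was 8.05 or more, so none was a duplicate.

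Of 55536 genes, 27229 with at least 10 reads over all samples were tested in 1 fit of all 21 samples with edgeR 4.0.16 (TMM, quasi-likelihood test, Benjamini-Hochberg over all tested genes, adjusted p below 0.01) in R 4.3.3; DESeq2 1.42.0, the authors' tool, was an alternative. The code was tested on simulated data. For the normalised counts given per sample, every library was put on a common scale with its DESeq2 size factor. TMM was used in the edgeR fits, and FPKM uses GENCODE vM21 exon length. Counting error is smallest for the deep libraries, and scarce genes such as Cplx1 are imprecise. Other alternatives were other scalings, filters, the unstranded column, 2 groups only, the replicate number or library set as a term, an acinar covariate, each set alone, a threshold of 0.05 and each sample left out. The genes and lists were chosen with earlier results of these data known, and some genes of the marker lists are not reported here. Values are given for members that passed in any comparison, the 2 highest per length in each class, Rab3a, Rab27a, Rab27b and Syn1 (added after their values were seen), and up to 5 other exocytosis genes per comparison.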

Additional observations from a re-analysis of the deposited data

Results flagged for a closer look

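Among 138 groups of 7 values (46 genes in 3 groups), 6 held a sample whose gap to its nearest neighbour was over 0.568 of the group's range, and chance flags about 1 in 20 such groups. The samples were Stxbp5l in HFD replicate 7 (165.14 normalised counts, nearest 117.907), Doc2b in HFD replicate 6 (153.968, nearest 111.253), Rph3al in RD replicate 2 (3038.87, nearest 3778.98), Cplx1 in HFD-O304 replicate 4 (76.7752, nearest 29.4665), Cplx2 in RD replicate 2 (19579.4, nearest 22967.6) and Syn1 in HFD replicate 4 (2566.34, nearest 2069.47). The HFD decrease of Stxbp5l passed with HFD replicate 7 left out and with it included. RD replicate 2 was low in both Rph3al and Cplx2.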

How the results depend on the processing

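In HFD against RD islets the 7 lower members became 12 with DESeq2, 4 with only the 2 groups in the fit, 14 with the library set as a term, 1 within replicates 5 to 7 and 14 at an adjusted p below 0.05, and 4 to 13 with 1 sample left out; the 1 higher member became 0 within replicates 1 to 4, 3 within replicates 5 to 7 and 2 at 0.05, and stayed 1 with any sample left out. In HFD-O304 against RD islets the 1 lower member became 5 with DESeq2 and at 0.05, 0 within replicates 5 to 7, 2 with DESeq2 size factors, upper quartile factors, the filterByExpr filter, only 2 groups, the library set as a term or an acinar covariate, and 1 to 2 with 1 sample left out (2 without RD replicate 5 or HFD-O304 replicate 3, and also without HFD replicate 4, which enters that fit only through the shared spread); the 1 higher member became 0 to 1 with 1 sample left out. In HFD-O304 against HFD islets the 8 lower members became 5 and 4 within replicates 1 to 4 and 5 to 7, the 16 higher ones became 10 within replicates 5 to 7, and leaving out 1 sample gave 13 to 17 higher and 8 to 9 lower. Leaving out a sample of the group not compared gave 6 to 7 lower members in HFD against RD and 14 to 16 higher and 8 to 9 lower in HFD-O304 against HFD islets. Calls over all genes moved with the processing too. In HFD against RD islets 963 became 1758 with DESeq2, 627 with only the 2 groups and 1611 with the library set as a term.

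With the replicate number as a block, 1 higher and 13 lower members were called in HFD against RD, 1 and 2 in HFD-O304 against RD, and 16 and 10 in HFD-O304 against HFD islets. Over all genes that block gave 1577, 543 and 3763 calls in place of 963, 356 and 3230. The numbers were not taken as pairs, since the labels name no shared animal, batch or day and the correlation of same-numbered samples was not over 0.1 in every case (15 of 21, from -0.54 to 0.69), with 7 of 21 samples closest to their own number. It was over 0.1 in 8 of 9 cases among replicates 5 to 7, whose library numbers run in triplets of the 3 groups, and in 7 of 12 among replicates 1 to 4.

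With the alpha and delta marker covariate, chosen after seeing the data, 0 members were higher and 0 lower in HFD against RD and in HFD-O304 against HFD islets, and 0 were higher and 1 lower in HFD-O304 against RD islets. Its values differ between the groups, so part of any diet difference falls to it. Under none of the alternatives did a called gene change sign. Of the calls, 1 of 8, 0 of 2 and 11 of 24 passed under all other alternatives and with every sample left out. The cause of the other changes was not tested.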
